A study of Coryphaena hippurus with 32 samples.

Results

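Slick oil was compared with clean seawater in mahi-mahi (Coryphaena hippurus), a fast-growing ocean fish, at 48 h post fertilization (hpf). The readout was messenger RNA of whole animals, sequenced and counted per gene. The samples were chosen by the stage and the oil in their labels, which gave 9 of the 32 samples of the series, 3 from slick oil and 6 from controls. Control replicates 4 and 5, replicates 6 and 7, and replicates 8 and 9 differed by about as much as sampling noise gives (chi-square per degree of freedom 0.968 to 1.03, against 1.29 to 1.88 in the other 12 pairs of controls). Each of these pairs was summed and counted as 1 sample, so the comparison rests on 3 slick and 3 control libraries, out of 27 libraries in the series.

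Embryos came from wild-caught broodstock that spawned without induction, and the labels give no strain, genotype or sex. They were placed soon after fertilization in glass beakers of seawater that was not renewed, kept at 27 °C. Slick animals were in a high-energy water accommodated fraction, a suspension of oil sheared into seawater, of Deepwater Horizon slick oil, which the labels give as 1 g/l. Controls were at 0 g/l. Another 3 samples of the same stage had source oil from the well at 1 g/l, and its values are set beside those of slick where they bear on a gene. Each sample pooled 30 animals. No measured hydrocarbon level enters this comparison. The labels do not say whether replicates came from separate spawns, and p-values therefore speak only of the spread among these samples, part of which may be technical.

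Crude oil carries polycyclic aromatic hydrocarbons, flat ring compounds that bind the aryl hydrocarbon receptor (AhR) in the cytoplasm. The bound receptor pairs with ARNT in the nucleus and switches on genes that break the compounds down, of which the monooxygenase CYP1A is the classic marker, and the gene of its own repressor, AHRR. In fish embryos crude oil is also known to disturb heart rhythm and heart shape and to cause fluid to gather around the heart and yolk.

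The 9 deposited samples held 7313439 to 8884058 counts over all table lines and 2126001 to 2560303 over the line kept for each gene. After summing, the 6 libraries held 2397977 to 4470040 counts, with 10107 to 10275 genes detected per sample. Normalised counts below are scaled to a library of 2245061 counts. Of 10998 genes with a count, 8060 passed the low-count filter and were tested with edgeR's quasi-likelihood test, and all adjusted p-values below are from that test with Benjamini-Hochberg adjustment. A gene is called at an adjusted p below 0.05. Symbols are those of the human genes to which the count lines are keyed, and functions are given as known for these genes or their fish counterparts.

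The slick libraries were not alike. Slick replicate 4 differed more from replicates 5 and 6 (chi-square per degree of freedom 2.82 and 3.03) than these did from each other (1.33). A set of 10 abundant features made up 33.2% of that difference, most of them muscle transcripts. Among them were the muscle actin ACTC1 (111900 normalised counts in slick replicate 4 against 142900 and 145800) and the creatine kinase CKM (116900 against 141900 and 140700). Control replicate 6+7 was low too (118600 and 114300), against 136000 and 133500 for ACTC1 and 136400 and 131800 for CKM in the other controls. Another of the 10, NUP133, followed ACTC1 at nearly 1 ratio (109100 in slick replicate 4 against 139100 and 141700). These 2 lines seem to share reads, so the 33.2% may count some reads more than once. On the first principal component, which held 18.7% of the variance, slick replicate 6 lay farthest from the controls (17.3, against 7.41 and 9.7 in the other slick libraries and -9.84 to -7.32 in controls). For the gene lists described below, counts of called genes that changed without slick replicate 4 or 6 are given beside the list or its genes.

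The AhR targets CYP1A1 and AHRR had the largest changes of the whole table, and the receptor genes themselves were not called. CYP1A1, the monooxygenase that oxidises aromatic hydrocarbons, had 117, 101 and 114 normalised counts in the 3 control libraries and 3547, 3231 and 3257 in the 3 slick libraries. The slick libraries held about the same level among themselves, and the groups lay far apart. CYP1A1 rose 30.3-fold (log2 change 4.92 ± 0.07, SE, adjusted p = 2.1e-48). AHRR, which competes with the receptor for ARNT, had 13.1, 10.4 and 16 normalised counts in controls and 150.2, 163 and 145 in slick. It rose 11.6-fold (log2 change 3.53 ± 0.15, adjusted p = 5.8e-25), again without overlap between the groups. FOXQ1, a forkhead transcription factor that the receptor induces in fish, had 52.4, 42.7 and 38.2 normalised counts in controls and 107, 74.1 and 84.8 in slick. Its slick values spread more widely, with replicate 4 highest, yet all lay above the controls, and it rose 2.01-fold (adjusted p = 8.8e-07).

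Of the 17 symbols in the AhR list, 11 had a count line and 9 were tested, of which 3 rose and 6 were not called, with a median log2 change of 0.20 in the list against 0.00456 over all tested genes. Across the 8060 genes 119, or 1.48%, were called higher. AHR itself, the receptor, had 12, 10.9 and 16.5 normalised counts in controls and 19.97, 16.5 and 24.7 in slick, with 1 slick library level with the highest control (1.54-fold, adjusted p = 0.23). Its kept line lay over 1.5-fold from the mean in the authors' deposited table. The partner genes ARNT (1.07-fold, adjusted p = 0.89) and ARNT2 (1.05-fold, adjusted p = 0.83) were not called. The same held for PTGES3, a co-chaperone of the unbound receptor in the cytoplasm (1.02-fold). NQO1, a quinone reductase that both AhR and NRF2 induce in mammals, stood at 1.15-fold with at most 13.8 normalised counts in a library (adjusted p = 0.85). CYP1B1, a second AhR-driven monooxygenase, had too few reads to be tested. It had 3, 4 and 1 raw counts in the control libraries and 3, 6 and 12 in the slick libraries. These counts are not scaled for depth, and the control libraries, each a summed pair of samples, were the deeper ones. Because lines carry human identifiers, reads of related CYP1 genes may be joined, and the CYP1A1 line can hold more than 1 mahi-mahi gene.

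**Figure D1:**
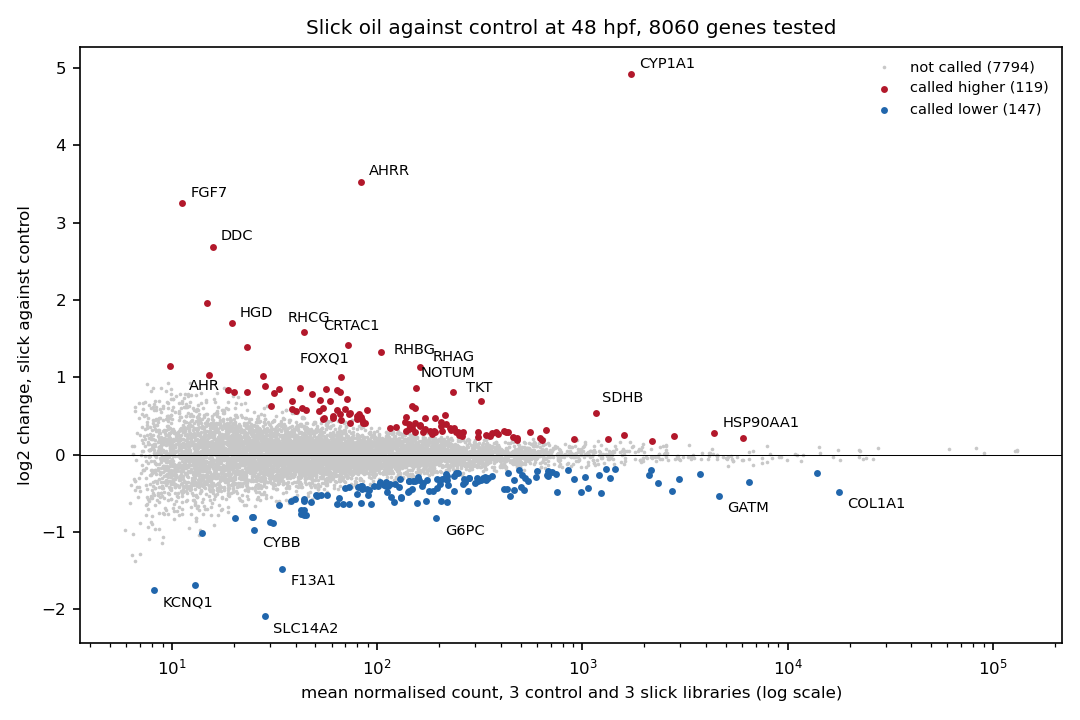
Each point is 1 of the 8060 tested genes, with its mean normalised count over the 3 control and 3 slick libraries on a log scale (horizontal) and its log2 change in slick against control (vertical). Red marks the 119 genes called higher and blue the 147 called lower. CYP1A1 and AHRR stand highest, SLC14A2 lowest, and of the 25 called genes above a mean of 1000 CYP1A1 alone moves far from 0.

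Beyond the AhR targets the response was broad and mostly small. Slick oil changed 266 of the 8060 genes (3.3%), with 119 higher and 147 lower (1.82%), and 1113 had an unadjusted p below 0.05. Counts of called members in the lists below are to be set against 1.48% higher, 1.82% lower and 3.3% in either direction. Only 71 of the 266 differed by more than 1.5-fold, 40 up and 31 down, and 20 by more than 2-fold. The groups did not overlap in 258 of the called genes, against 18.7% of all tested genes. The authors' deposited table for the same comparison held 64 genes higher and 94 lower at an adjusted p below 0.05. Leaving out slick replicate 4 gave 285 called genes, and leaving out slick replicate 6 gave 170. A core of 100 genes, 45 higher and 55 lower, was called under each of the 15 alternatives in which the gene passed the low-count filter. Called genes named below belong to this core unless a clause beside them says where the call ended. Such a clause does not always name every fit in which it ended. The kept line lay over 1.5-fold from the mean in the authors' deposited table for 23 of the called genes, among those named below PRPS2, HSP90AB1, RHCG, RHBG, POSTN, COL12A1, CYBB, ZFP36L1, GATA4 and CSRP3, so the line may not be the one the authors tested. List members named as not called, muscle genes of single libraries and called members past the first 6 of a list, such as QSOX1, COL14A1, COMP and TNC, were chosen after their values were seen. In whole animals, fewer cells of a type and less RNA per cell cannot be told apart.

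Most antioxidant genes were not called. In the list of NRF2 and glutathione genes, the cell's antioxidant programme, 2 of 22 tested members rose and 1 fell. Over all tested genes the shares were smaller, with 1.48% called higher and 1.82% lower. SQSTM1, an autophagy receptor that also frees NRF2, had 76.4, 71 and 66 normalised counts in controls and 113, 102 and 104 in slick (1.5-fold, adjusted p = 0.00037). GCLC, the catalytic subunit that starts glutathione synthesis, rose from 187 ± 14.2 to 246 ± 9.25 (SD, n = 3, 1.32-fold, adjusted p = 0.0004). In both genes every slick library was above every control library. TXN, thioredoxin, was the member that fell (0.81-fold), and its call was lost in 3 of the 6 fits that left out 1 library (adjusted p up to 0.18, without control replicate 6+7), with DESeq2 and with summed lines. The list's median log2 change was 0.12, and without slick replicate 4 its count was 3 higher and 0 lower.

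The pentose phosphate list was split, with 2 of 8 tested genes higher and 2 lower. TKT, transketolase, which links this pathway to glycolysis, had 162, 177 and 173 normalised counts in controls and 300.4, 301 and 295 in slick. It rose 1.75-fold (log2 change 0.81 ± 0.07, adjusted p = 1.9e-11), and the 3 slick values nearly coincided. PGD, which makes NADPH in the oxidative branch, rose 1.25-fold (564, 599 and 608 in controls, 741, 721 and 757 in slick, adjusted p = 4.7e-05). The phosphoribosyl pyrophosphate synthetases, which draw ribose phosphate off for nucleotides, fell. PRPS1 had 209.6, 219.5 and 192 in controls and 164, 147 and 138 in slick (0.725-fold, adjusted p = 0.00011), and PRPS2 stood at 0.771-fold (adjusted p = 0.00091). Among 15 tested cytochromes P450 and conjugating enzymes outside the CYP1 family only GSTO1, a glutathione transferase, was called (1.79-fold, adjusted p = 0.0498), with as few as 9.28 normalised counts in a library and the call lost in 4 of 6 leave-one-out fits (adjusted p up to 0.3, without slick replicate 6), with DESeq2 and with summed lines. It was lost also with 1 sample of each control pair and in a fit without the source libraries.

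Chaperone genes that were called all rose. Of 27 tested, 5 rose, 0 fell and 22 were not called (median log2 change 0.11), and the count was 4 higher without slick replicate 4 and 4 without slick replicate 6. The share called higher over all tested genes was 1.48%. HSP90AA1, the inducible cytosolic HSP90, had 3968, 3895 and 4059 normalised counts in controls and 4942, 4664 and 4824 in slick, a small change with tight groups (1.21-fold, adjusted p = 3.9e-05). HSP90AB1, its constitutive partner and a component of the unbound AhR complex, rose as well (5622, 5490 and 5639 in controls and 6643, 6341 and 6527 in slick, 1.17-fold, adjusted p = 0.0011). Near-identical HSP90 genes can share reads, so how the counts divide between them is uncertain. SERPINH1, the chaperone of procollagen, rose 1.4-fold (120.1, 112 and 116 in controls, 178, 160.1 and 146 in slick, adjusted p = 0.00025), a call that ended when 1 sample of each control pair was used. DNAJA4, a co-chaperone outside the list, rose 1.78-fold (adjusted p = 1.5e-05). The calls of HSPA9, the mitochondrial HSP70 (1.42-fold), and DNAJB1 (1.62-fold) were lost in 2 and 3 of the leave-one-out fits, with an adjusted p up to 0.095 without slick replicate 5 and 0.13 without control replicate 4+5, and with DESeq2 and summed lines. None of 27 ER stress and amino acid response genes was called over all libraries by edgeR or DESeq2. By edgeR 1 was called lower without slick replicate 4, 1 lower without control replicate 6+7 and 1 higher with each control sample as a library. HSP90B1, the HSP90 of the endoplasmic reticulum, had the highest counts among them (1.12-fold, adjusted p = 0.075).

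Transporters of nitrogen waste changed strongly and in opposite directions. The Rh glycoproteins carry ammonia across the membranes of fish skin, gill and red blood cells, and all 3 that were tested rose. RHCG had 24.6, 19.4 and 22.2 normalised counts in controls and 68.6, 65 and 64.1 in slick. RHBG had 64.4, 54.6 and 58.8 in controls and 149, 152 and 146 in slick, and RHAG, the member known from red blood cells, had 97.7, 101 and 104 in controls and 246, 199 and 218 in slick. In each gene every slick library was above every control library by a wide gap. The increases were 3-fold, 2.52-fold and 2.2-fold (adjusted p = 3.8e-10, 6.2e-14 and 2.9e-14). All 3 were called also with all lines of a gene summed.

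SLC14A2, a urea transporter, changed the other way. It had 45.9, 56.6 and 35.1 normalised counts in controls and 13, 6.4 and 12.8 in slick, so the highest slick library held less than the lowest control library. It fell to 0.235-fold (log2 change -2.09 ± 0.26, adjusted p = 9.1e-08). The other 18 of 22 tested genes of ammonia, urea and acid-base handling were not called, and the list's median log2 change was 0.16. The list's count was 5 higher and 1 lower without slick replicate 4, as with no filter on low counts and with each control sample as a library. In the ionocyte list, genes of the salt-transporting cells of skin and gill, 2 of 21 fell. SLC12A2, the Na-K-Cl cotransporter that loads chloride for secretion in seawater fish, had 640.3, 646 and 664 in controls and 511, 537 and 555 in slick (0.821-fold, adjusted p = 0.001). ATP1B1, a sodium pump subunit, stood at 0.79-fold (adjusted p = 0.00042), a call that ended with summed lines. Of 20 tested red cell and heme genes RHAG rose and 2 fell (1 without slick replicate 4 and 1 without slick replicate 6), the embryonic-type globin HBE1 (242, 276 and 225 in controls, 163, 193 and 135 in slick, 0.664-fold, adjusted p = 1.6e-05) and UROD, an enzyme of heme synthesis (0.8-fold), lost in 4 leave-one-out fits (adjusted p up to 0.12, without slick replicate 4) and with DESeq2 and summed lines.

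The called genes of tyrosine use were all higher. Of 22 tested pigment and tyrosine genes 4 rose and 0 fell. DDC, which makes dopamine and serotonin from their amino acid precursors, had 4.91, 4.47 and 3.1 normalised counts in controls and 9.55, 54.9 and 17.8 in slick. The slick libraries differed widely, with replicate 5 several times the others, while all 3 lay above the controls. The fitted change was 6.46-fold (log2 change 2.69 ± 0.40, adjusted p = 4.6e-06), and the adjusted p was 0.014 without slick replicate 5. With each control sample as a library DDC did not pass the low-count filter. HGD and FAH, the enzymes that break tyrosine down by way of homogentisate, were higher in every slick library than in any control library. HGD had 10.4, 7.45 and 9.8 normalised counts in controls and 37.3, 28.4 and 23.7 in slick, and FAH had 45.9, 44.2 and 53.6 in controls and 84.2, 73.2 and 94.7 in slick. They rose 3.25-fold and 1.75-fold (adjusted p = 4.6e-06 and 2e-05). TYR, the tyrosinase of pigment cells, rose 1.29-fold (adjusted p = 0.00087). The pigment cell genes DCT, TYRP1 and PMEL were not called, and the list's median log2 change was 0.09.

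In the citrate cycle and respiratory chain 4 of 50 tested genes rose and 0 fell, with a median log2 change of 0.02, and 2 rose without slick replicate 6. The share called higher over all tested genes was 1.48%. SDHB, the iron-sulfur subunit of succinate dehydrogenase, had 938, 971 and 923 normalised counts in controls and 1340, 1340 and 1453 in slick. It rose 1.46-fold (log2 change 0.54 ± 0.05, adjusted p = 1.9e-11), well beyond the spread of either group. SUCLA2, a subunit of the ligase that makes succinate, rose 1.33-fold (126, 131 and 134 in controls, 171, 174 and 178 in slick, adjusted p = 0.0007). SDHA, the flavoprotein subunit, stood at 1.19-fold, with 1472, 1441 and 1456 in controls and 1603, 1691 and 1901 in slick, highest in replicate 6, and an adjusted p of 0.083 without that library, and the call also ended with summed lines. NDUFV1 of complex I stood at 1.13-fold and was lost in 4 leave-one-out fits (adjusted p up to 0.22, without slick replicate 6) and with summed lines. NFS1, which supplies sulfur for iron-sulfur clusters and was singled out after its values were seen, rose 1.73-fold (34.9, 31.3 and 39.7 in controls, 58.2, 59.5 and 66.1 in slick, adjusted p = 0.00028).

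**Figure D2:**
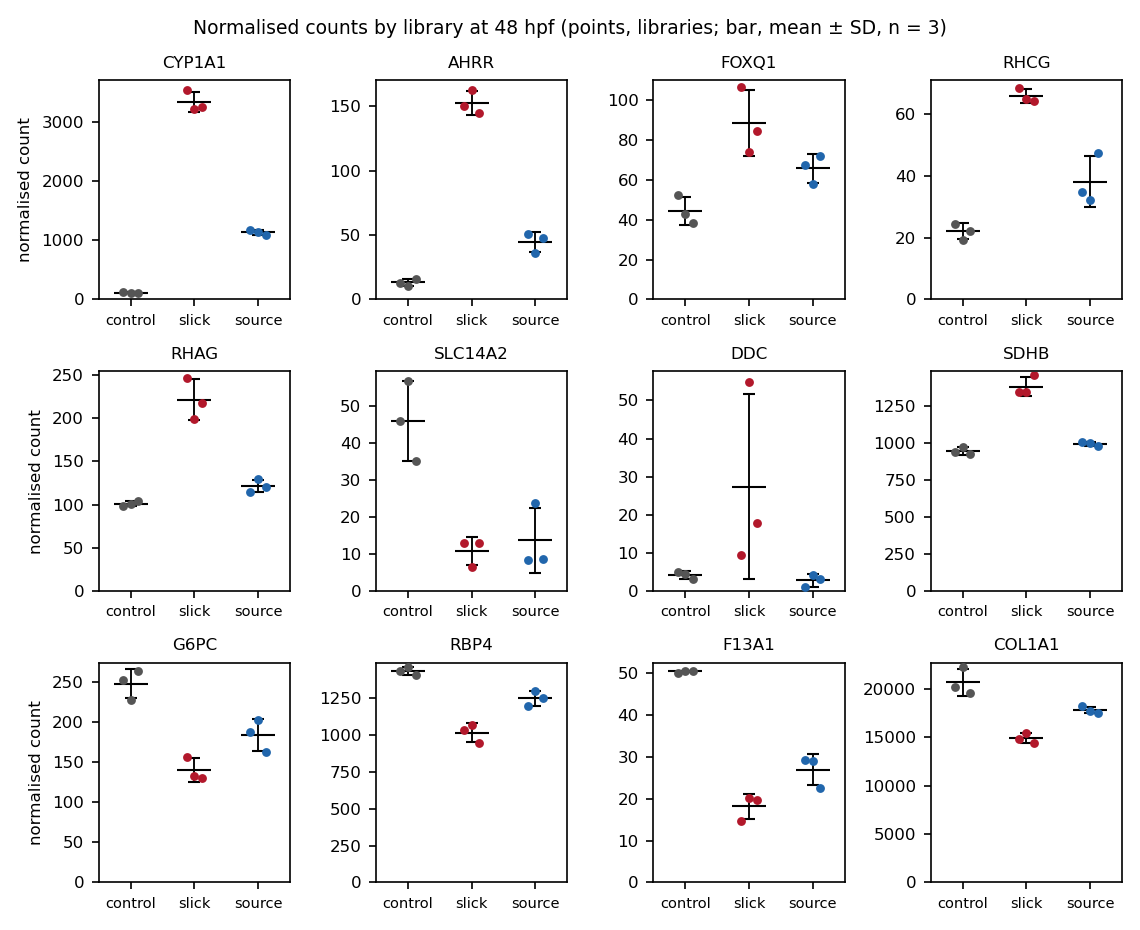
Normalised counts of 12 genes in each 48 hpf library (points), with the mean and SD of the 3 libraries in each of the control, slick and source groups; every vertical axis starts at 0. CYP1A1, AHRR, RHCG and RHAG are highest in slick with source between slick and control, and G6PC, RBP4, F13A1 and COL1A1 are lowest in slick.

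Every liver plasma protein gene that was called fell. Of 14 tested plasma proteins made by the liver 6 fell, 0 rose and 8 were not called, and the median log2 change was -0.30. The share called lower over all tested genes was 1.82%. RBP4, which carries retinol, had 1435, 1463 and 1406 normalised counts in controls and 1033, 1070 and 947 in slick (0.709-fold, adjusted p = 6.6e-10). Transferrin (TF), the iron carrier, whose line also carries a second identifier, had 3239, 3305 and 2946 in controls and 2563, 2202 and 2114 in slick (0.725-fold, adjusted p = 1.2e-08). APOB, the scaffold of lipoproteins that move yolk lipid, had 517, 555 and 499.8 in controls and 358, 391 and 331 in slick (0.688-fold, adjusted p = 2.1e-06). In all 3 genes every slick library lay below every control library. ITIH2, a hyaluronan-binding inhibitor (0.718-fold), and CP, the copper carrier ceruloplasmin (0.796-fold), fell as well (adjusted p = 5.7e-08 and 0.0007). FETUB stood at 0.834-fold, and its call was lost without slick replicate 6 (adjusted p = 0.22), without control replicate 4+5, with DESeq2 and with summed lines. The fibrinogen chains FGA, FGB and FGG were not called.

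The clotting factors F13A1 and F2 fell, 2 of 6 tested coagulation genes, and the other 4 were not called. F13A1, the crosslinking subunit of factor XIII, had 50.2, 50.6 and 50.5 normalised counts in controls and 14.8, 20.1 and 19.7 in slick. It fell to 0.36-fold (log2 change -1.47 ± 0.19, adjusted p = 1.1e-07), the largest fall among tested genes with a mean above 30 normalised counts. At lower means SLC14A2 and KCNQ1 fell further (log2 change -2.09 and -1.75). F2, prothrombin, had 139, 146 and 155 in controls and 111, 104 and 71 in slick, lowest in slick replicate 6 (0.655-fold, adjusted p = 6.2e-05). C8G, a complement component made in the liver and singled out after its values were seen, fell to 0.714-fold (adjusted p = 2.7e-06).

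The called genes of glucose release were all lower. G6PC, which frees glucose from the liver at the last step of gluconeogenesis, had 253, 228 and 264 normalised counts in controls and 157, 133 and 130.2 in slick. It fell to 0.566-fold (log2 change -0.82 ± 0.08, adjusted p = 3.8e-10) with no overlap. PCK1 (0.821-fold) and FBP1 (0.769-fold), enzymes of other committed steps, were called lower. They lost their calls in 2 and 3 leave-one-out fits (adjusted p up to 0.17 without slick replicate 6 and 0.2 without control replicate 4+5) and with DESeq2 and summed lines. PC, the pyruvate carboxylase of the same list, was not called (log2 change -0.06). Of 41 tested genes of gluconeogenesis and glycolysis 4 fell and 37 were not called, against 1.82% called lower over all tested genes. The list's median log2 change was -0.04. Without slick replicate 6 the count was 2 lower.

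Among 24 tested genes of fatty acids and triglycerides 3 fell and 0 rose (3 lower and 1 higher without slick replicate 4), and the list's median was -0.01. DGAT2, which makes triglycerides, had 276, 260.2 and 255 normalised counts in controls and 179.7, 177 and 162 in slick (0.656-fold, adjusted p = 2.1e-07). ELOVL1, an elongase of very long fatty acids, had 187, 199 and 180.5 in controls and 128, 124 and 115 in slick (0.65-fold, adjusted p = 7e-07), and FADS6, a desaturase-like gene, stood at 0.645-fold (adjusted p = 0.00085). CERS2, which joins very long fatty acids to ceramides and lies outside the list, fell to 0.646-fold (adjusted p = 6.2e-05). These genes were lower in every slick library than in any control library. UCP1, a mitochondrial carrier, was the 1 called of 21 fatty acid oxidation genes (0.586-fold), and its call was lost in 3 leave-one-out fits (adjusted p up to 0.11, without control replicate 4+5), with DESeq2 and with summed lines. MSMO1, the 1 called of 18 cholesterol synthesis genes, rose 1.52-fold (126, 127 and 112 in controls, 192, 159 and 206 in slick, adjusted p = 3.4e-06), while the list's median log2 change was 0.17. Of 15 genes of sterol sensing and transport 2 fell. ABCA1, which exports cholesterol from cells, fell to 0.827-fold (adjusted p = 0.00095). LCAT, the enzyme that esterifies plasma cholesterol, stood at 0.784-fold, a call lost without slick replicate 6 (adjusted p = 0.13), with DESeq2 and with summed lines.

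The called genes of creatine supply fell, and those of methyl-group supply went both ways. Of 30 tested genes of polyamine, creatine and one-carbon metabolism 5 fell, 1 rose and 24 were not called (median log2 change -0.07). The count was 4 lower and 3 higher without slick replicate 4, and 3 lower and 1 higher without slick replicate 6. GATM and GAMT make creatine in series, the first from arginine and glycine, the second by methylation. GATM had 5300, 5603 and 5429 normalised counts in controls and 3837, 4034 and 3448 in slick, and it fell to 0.693-fold (log2 change -0.53 ± 0.05, adjusted p = 4.5e-11). GAMT had 3360, 3324 and 3128 in controls and 2505, 2795 and 2631 in slick (0.808-fold, adjusted p = 2.1e-05). BHMT, which remethylates homocysteine with betaine, had 2727, 2506 and 2634 in controls and 1886, 2273 and 1923 in slick (0.773-fold, adjusted p = 2.4e-06). All 3 genes were abundant, and the groups did not overlap. MTHFD1 (0.808-fold) and DMGDH (0.83-fold) were also called lower, but lost their calls without slick replicate 6 (adjusted p = 0.25 and 0.37) among others, and with DESeq2 and summed lines. MAT2A, which makes the methyl donor S-adenosylmethionine outside the liver, rose 1.23-fold (adjusted p = 0.0021), a call that ended with summed lines.

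The fibrous matrix list had the most called members of the 51 lists. Of 27 tested genes of type I collagen and its processing 10 fell, 0 rose and 17 were not called, with a median log2 change of -0.15, and 9 were called lower without slick replicate 4 and 9 without slick replicate 6. The share called lower over all tested genes was 1.82%. COL1A1, the main chain of type I collagen in skin and bone, had 20210, 22270 and 19610 normalised counts in controls and 14770, 15440 and 14440 in slick. COL1A2, its partner chain, had 7254, 7481 and 7099 in controls and 5468, 5815 and 5859 in slick. The 2 genes fell to 0.719-fold and 0.785-fold (adjusted p = 9e-11 and 2e-07), with each group tight and no overlap. SPARC, which binds collagen outside the cell, had 1527, 1481 and 1472 in controls and 1221, 1219 and 1209 in slick (0.815-fold, adjusted p = 3.7e-05). POSTN, periostin, stood at 0.747-fold and COL12A1, a collagen on the surface of type I fibrils, at 0.727-fold (adjusted p = 5.3e-06 and 1.1e-07). COL5A2, COL14A1, COL5A3, LOXL1 and QSOX1 were the other members that fell, from 0.583-fold in QSOX1 to 0.843-fold in COL5A2. COL14A1 lost its call with summed lines, COL5A3 without slick replicate 5 (adjusted p = 0.075) and LOXL1 in 4 leave-one-out fits (up to 0.18, without control replicate 4+5). The collagen-modifying enzymes PLOD1, PLOD2 and PLOD3 were not called, and SERPINH1, the procollagen chaperone described above, rose.

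Cartilage genes moved in both directions, 5 lower and 2 higher of 25 tested (median log2 change -0.11), and the balance turned to 4 lower and 5 higher without slick replicate 4. CRTAC1, a secreted cartilage protein, had 44.8, 31.3 and 41.8 normalised counts in controls and 102, 104 and 108 in slick and rose 2.68-fold (adjusted p = 1.6e-11). CILP, a matrix protein of cartilage, had 475, 479 and 468 in controls and 328, 331 and 394 in slick and fell to 0.739-fold (adjusted p = 3.1e-06). COL2A1, the chain of cartilage collagen, fell to 0.846-fold (adjusted p = 0.0011), a call that ended with summed lines. The other calls were ITGBL1, lost without control replicate 6+7 (adjusted p = 0.0504), HAPLN1, lost without slick replicate 6 (0.063), COMP, lost without slick replicate 4 (0.078) and without control replicate 4+5, all lower, and EPYC, higher, lost with summed lines. Among 35 basement membrane and integrin genes 6 fell and 1 rose. ITGB4, the integrin that anchors skin epithelium, fell to 0.738-fold (167, 177 and 164 in controls, 127, 132 and 116 in slick, adjusted p = 0.0007), and HSPG2, perlecan, rose 1.23-fold (adjusted p = 0.00076). The other 5 called members of that list, COL7A1, THBS3, NID1, THBS1 and TNC, each lost the call in 1 to 4 leave-one-out fits (adjusted p up to 0.19, for NID1 without control replicate 6+7), and the list's count became 2 higher and 2 lower without slick replicate 4 and 1 higher and 4 lower without slick replicate 6. Of 28 matrix proteases 4 were called lower and 1 higher, and each of these 5 lost its call in 1 to 3 leave-one-out fits (adjusted p up to 0.34, for the astacin ASTL without slick replicate 6). DESeq2 called 1 of the 28, lower, and 0 were called with summed lines.

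**Figure D3:**
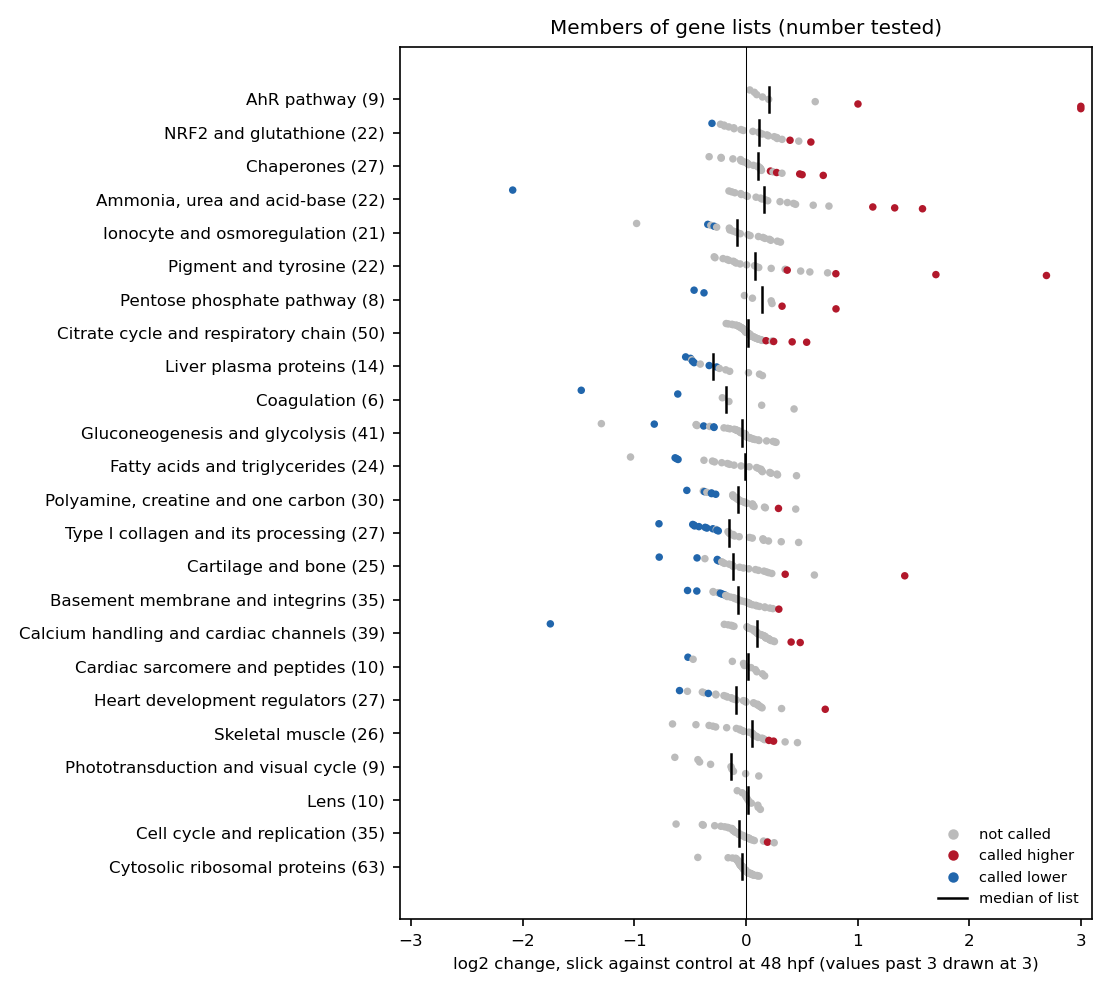
Log2 change in slick against control at 48 hpf (horizontal; 1 point per tested gene, values past 3 drawn at 3) for 24 gene lists, with red and blue for genes called higher and lower, grey for genes not called and a black bar at the list's median. The 10 called genes of the type I collagen list and the 6 of the liver list all lie on the lower side, and the 5 called chaperones on the higher side.

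Most genes of the heart and muscle lists were not called at this stage. On few calls, the called share in each list was above the 3.3% of all tested genes. It was 3 of 39 for calcium handling and cardiac channels and 1 of 10 for cardiac sarcomere. For heart regulators it was 3 of 27, and for skeletal muscle 2 of 26. Of 39 tested genes of calcium handling and cardiac channels 2 rose and 1 fell, and the median log2 change was 0.10, with 33 of 39 above 0. KCNQ1, the pore of the slow repolarising potassium current, had 14.2, 13.9 and 9.8 normalised counts in controls and 2.6, 4.57 and 3.94 in slick. It fell to 0.297-fold (log2 change -1.75 ± 0.39, adjusted p = 0.003) without overlap, on few reads, and DESeq2 did not call it (adjusted p = 0.061). CACNA1D, a pore of L-type calcium channels in pacemaker cells, had 66, 66 and 74.8 in controls and 89.4, 99.7 and 102 in slick (1.4-fold, adjusted p = 0.0057). Its call was lost without slick replicate 6 (adjusted p = 0.051), with DESeq2 and with 1 sample of each control pair. CACNA2D1, an auxiliary subunit (1.32-fold), was lost in 4 leave-one-out fits (up to 0.32, without slick replicate 6), with DESeq2 and with 1 sample of each control pair. The list's count became 6 higher and 1 lower without slick replicate 4, the slick library with fewer ACTC1 and CKM counts. It became 0 higher and 1 lower without slick replicate 6. KCNH2, the channel of the fast repolarising current, the calcium pump ATP2A2 and the exchanger SLC8A1 were not called.

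Among 10 tested cardiac sarcomere genes only CSRP3, a stretch sensor of muscle, was called (0.698-fold, adjusted p = 0.042). The call was lost in 5 of 6 leave-one-out fits (up to 0.26, without control replicate 4+5), with DESeq2 and with summed lines. In that list 4 genes were called higher without slick replicate 4 and 0 in either direction without slick replicate 6. The skeletal muscle list had 2 of 26 genes higher over all libraries (AMPD1 and MYBPC2, whose groups overlapped), 8 higher without slick replicate 4 and 0 without slick replicate 6. The part of library composition in these counts was not tested.

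Regulators of heart formation held 3 calls among 27 tested genes. GATA6, a transcription factor of heart and gut, had 208, 205 and 209 normalised counts in controls and 157, 142 and 110.5 in slick, with replicate 6 lowest, and fell to 0.662-fold (adjusted p = 3e-06). GATA4, its relative, stood at 0.792-fold, and its call was lost in 3 leave-one-out fits (up to 0.27, without slick replicate 6) and with DESeq2 and summed lines. ZFPM2, a cofactor that binds GATA4, had 34.4, 47.2 and 38.2 in controls and 63.4, 67.7 and 66.1 in slick and rose 1.64-fold (adjusted p = 0.00087). The list's median log2 change was -0.09.

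Secreted signals and other regulators changed singly. NOTUM, an enzyme that inactivates Wnt proteins, had 106, 108 and 114 normalised counts in controls and 200.5, 187 and 214 in slick and rose 1.82-fold (log2 change 0.87 ± 0.08, adjusted p = 7.4e-11). SFRP1, a Wnt binder, had 165, 149 and 156 in controls and 94.6, 123 and 101 in slick and fell to 0.677-fold (adjusted p = 4.9e-05). The other 44 of 46 genes in that list were not called, though without slick replicate 4 the count was 1 higher and 2 lower. Across all tested genes 3.3% were called in either direction, so the list's share was near that of all genes. BMPER, a binder of bone morphogenetic proteins, and FSTL3, a binder of activin, fell to 0.684-fold and 0.643-fold (adjusted p = 0.00029 and 0.00076). IGFBP2, which binds insulin-like growth factors, had 359, 331 and 282 in controls and 271, 227 and 199 in slick (0.722-fold, adjusted p = 6.2e-05). ZFP36 and ZFP36L1, proteins that mark messages of early response genes for decay, fell to 0.769-fold and 0.738-fold (adjusted p = 0.00015 and 8.1e-07), 2 of 16 immediate early genes (3 without slick replicate 4). The clock gene CRY1 rose 1.23-fold (489.6, 501 and 498 in controls, 599.9, 602 and 628 in slick, adjusted p = 0.00034). PER2, another clock gene, stood at 1.48-fold and lost its call without slick replicate 6 (adjusted p = 0.057), with DESeq2 and with summed lines. CYBB, the oxidase subunit of phagocytes, was the 1 called of 15 immune genes (32.8, 35.3 and 32 in controls, 14.8, 20.1 and 15.8 in slick, 0.507-fold, adjusted p = 0.0018), with 1 other called higher without slick replicate 6.

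Eye, brain and growth lists held few or no calls. In those with 1 call the share was near the 3.3% of all tested genes called in either direction. Lists of 9 or 10 tested genes are too short to be set against that share. Of 33 tested eye and brain patterning genes 1 was called higher and 0 lower. That count was 0 higher and 1 lower without slick replicate 4, and 0 in either direction without slick replicate 6 and with DESeq2. None of 9 tested phototransduction genes was called over all libraries by edgeR or DESeq2 (1 lower by edgeR without slick replicate 5 and with no filter on low counts, among others), with a median log2 change of -0.13 and 8 of 9 below 0. GNAT2, the cone transducin with the highest counts among them, stood at 0.917-fold (adjusted p = 0.55). Its mean in the authors' deposited table was only 1.18, so the kept line may not be the one the authors tested. The 10 lens genes had a median of 0.02 and 0 calls by edgeR, or 1 higher without slick replicate 4. The beta-crystallin CRYBA2 had 858, 633 and 1150 in controls and 649, 1063 and 959.6 in slick, so that the groups overlapped over most of their range. Of 40 neuronal and synaptic genes only ELAVL4, an RNA-binding protein of neurons, was called (1.2-fold, adjusted p = 0.0496), while the list's median was 0.14. The call was lost in 4 leave-one-out fits (up to 0.26, without control replicate 4+5), with DESeq2, with summed lines and with no filter on low counts, among others. No gene was called by edgeR over all libraries in the lists of p53 and apoptosis, hypoxia, proteasome, tRNA synthetases, endothelium and epidermis. The same held for glia, peptide hormones, intestinal brush border and pancreatic enzymes, but few members of these were tested. In that order they were 6 of 13, 9 of 36, 7 of 27 and 4 of 25 symbols, so most members of the last 3 lists were not measured here. Leaving out 1 library gave 1 endothelial gene lower, without slick replicate 4, and 1 hypoxia gene lower, without control replicate 6+7. Of 63 cytosolic ribosomal proteins 0 were called (median -0.03), and of 35 cell cycle genes 1, RRM2, which lost its call in 5 leave-one-out fits (up to 0.21, without control replicate 6+7).

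Source oil of the same stage shares the control libraries with slick, so the changes against control are set side by side only. Source changed 106 of 8060 genes (1.32%) against control. CYP1A1 had 1183, 1136 and 1094 normalised counts in the source libraries and AHRR 50.9, 36.2 and 47.4, between the controls and slick in both genes. The direct test of slick against source called 60 genes (0.744%). Of the 119 genes higher in slick 27 were among them, each higher than in source, as were 16 of the 147 lower genes, each lower than in source. This test shares the slick libraries with the calls against control, so these directions are favoured by the choice of genes. RHAG had 115, 129 and 121 in source, 1.21-fold of control, and slick exceeded source by 1.82-fold (adjusted p = 1.3e-08). SDHB had 1005, 997 and 979 in source, 1.05-fold of control, and slick exceeded source by 1.39-fold (adjusted p = 1.9e-08). DDC had 0.942, 4.14 and 3.23 in source, below the lowest slick library, and differed 9.79-fold between the oils (adjusted p = 0.00014). HSP90AA1 (0.985-fold) and HSP90AB1 (0.979-fold) in source were near control, and slick was above source in both (adjusted p = 7.7e-05 and 0.0012). COL1A1 in source lay at 0.861-fold of control, and slick lay below source at 0.836-fold (adjusted p = 0.001). For other genes no difference between the oils was detectable with these libraries. SLC14A2 was at 0.296-fold of control in source (direct test 0.795-fold, log2 difference -0.33 ± 0.39, adjusted p = 0.84), and GAMT was at 0.824-fold in source (direct test 0.981-fold, log2 difference -0.03 ± 0.05, adjusted p = 0.91).

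The slick effect at 48 hpf was compared with that at 24 and 96 hpf, whose libraries are separate. In 1 fit of all 27 libraries 0.157% of 8898 genes were called higher in slick and 0.045% lower at 24 hpf, and 8.44% higher and 12% lower at 96 hpf. Of the 119 genes higher at 48 hpf, 6 were higher and 0 lower at 24 hpf, and 44 were higher and 22 lower at 96 hpf. Of the 147 genes lower at 48 hpf, 1 was higher and 0 lower at 24 hpf, and 31 were higher and 42 lower at 96 hpf. The effect differed between 48 and 24 hpf in 60 of 8898 genes (0.674%) and between 96 and 48 hpf in 1036 (11.6%). These tests share the 48 hpf libraries with the calls above, so a difference pointing away from the 48 hpf change is favoured by the choice of genes.

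CYP1A1 rose at 24 and 96 hpf too (22.1-fold and 35-fold), and the test of the difference from 48 hpf was not passed (adjusted p = 0.15 and 0.29). AHRR rose less at 24 hpf (2.81-fold, adjusted p for the difference = 0.013). The fitted changes of G6PC, SLC14A2 and KCNQ1 lay above control at 24 hpf and below it at 48 hpf. Of the 147 genes lower at 48 hpf, only 1 was called higher at 24 hpf. The adjusted p-values given here test the difference between stages, not the change at 24 hpf. G6PC rose 2.09-fold at 24 hpf, against 0.566-fold at 48 hpf (adjusted p for the difference = 1.8e-09), and stood at 1.04-fold at 96 hpf. SLC14A2 stood at 2.06-fold at 24 hpf and fell to 0.0213-fold at 96 hpf (adjusted p for the differences from 48 hpf = 3e-06 and 0.00058). KCNQ1 stood at 1.66-fold and 1.25-fold (adjusted p = 0.00017 and 0.01). COL1A1 and COL1A2 were near control at 24 hpf (1.02-fold and 1.09-fold) and below it at 96 hpf (0.717-fold and 0.773-fold). SDHB was near control at 24 hpf (1.03-fold) and stayed above it at 96 hpf (1.4-fold).

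Other genes turned between 48 and 96 hpf. RHCG stood at 0.756-fold at 96 hpf, and RHAG and RHBG at 1.13-fold and 1.2-fold, each a smaller effect than at 48 hpf (adjusted p for the difference = 1.1e-15, 1.2e-11 and 4.5e-12). TKT rose 1.75-fold at 48 hpf and fell to 0.715-fold at 96 hpf (adjusted p = 1.6e-17). The liver products RBP4, CP, F2 and ITIH2 were lower at 48 hpf and stood at 1.4-fold, 2.19-fold, 1.68-fold and 1.23-fold at 96 hpf (adjusted p for the difference = 7.6e-18, 7.6e-18, 2.5e-12 and 1.2e-10), whereas transferrin fell further to 0.434-fold (adjusted p = 2e-07). DGAT2 and ELOVL1 rose 1.39-fold and 1.28-fold at 96 hpf. MSMO1 and SQSTM1, higher at 48 hpf, rose further to 4.36-fold and 3.92-fold (adjusted p for the difference = 1.4e-20 and 4.8e-14).

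**Figure D4:**
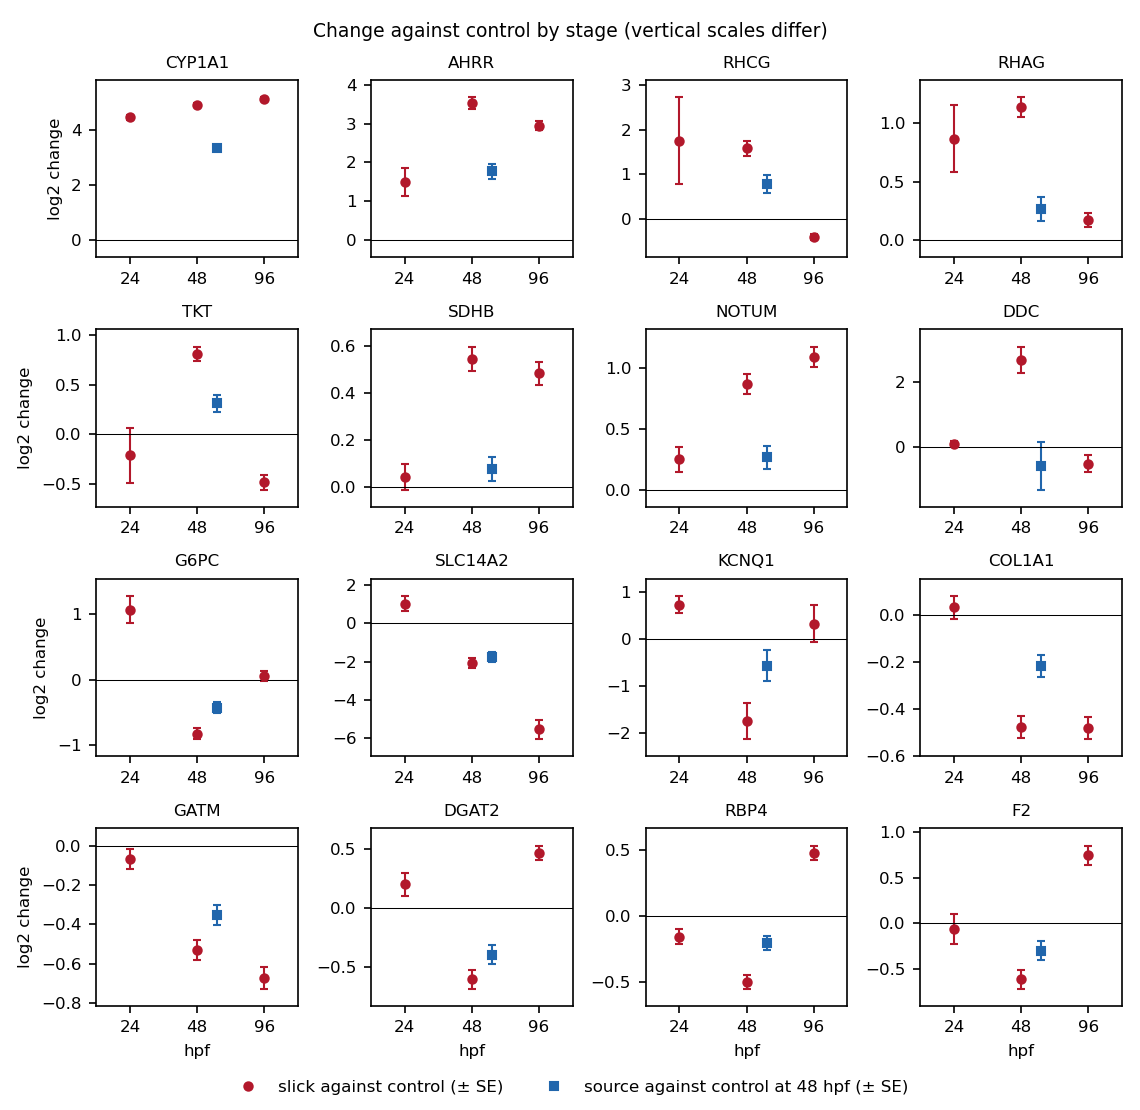
Log2 change against control for 16 genes, with slick at 24, 48 and 96 hpf (red circles) and source at 48 hpf (blue squares); bars are standard errors and vertical scales differ between genes. The 48 hpf values come from the 9 libraries of that stage and the others from the fit of all 27. CYP1A1 is high at all 3 stages, whereas G6PC and SLC14A2 are above 0 at 24 hpf and below 0 at 48 hpf.

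The normal course of these genes was read from controls of 24 and 96 hpf, which the comparison did not use. Of the 119 genes higher in slick, 90 (75.6%) were higher in control animals at 96 than at 24 hpf, with a median log2 difference of 0.67. Over all 8046 tested genes with a value 48.8% were higher at 96 hpf, with a median of -0.03, and over the 147 genes lower in slick 44.9%, with a median of -0.14. In the first group 49 genes (41.2%) rose over 2-fold between these stages, against 17.2% of all genes. These shares describe the called genes and carry no test.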

How the data were processed

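Whole-animal RNA was sequenced from pools of 30 animals on an Illumina HiSeq2500 with TruSeq libraries, per the labels' protocols. The authors deposited 1 table of raw counts for the 32 samples, with 42538 lines keyed to human gene identifiers. HTSeq, DESeq2 and the hg19 build are named in the submitters' processing notes, without roles, and the aligner and the route from mahi-mahi reads to human genes are not given in the sources used here. For slick against control at this stage, the authors' deposited table gives a mean normalised count (unit: signal), a log2 fold change and an adjusted p-value per gene, and was used only for its counts of genes and to compare means.

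Of 12653 identifiers 5654 had more than 1 distinct line, of which the one with most counts in all samples was used. Identifiers with identical lines were joined (103 features), and 286 features had no symbol and carry their identifier. The 332 lines that name no gene, up to 0.043% of the counts in a sample, did not enter. Control samples were summed where their counts, over genes of 20 or more, gave a chi-square p above 0.001. Counts were tested with edgeR 4.0.16 in R 4.3.3, with TMM scaling, filterByExpr and the quasi-likelihood F-test, over the 9 libraries of 48 hpf, or over all 27 for tests between stages, with Benjamini-Hochberg adjustment over all tested genes. The common biological coefficient of variation was 4.29%. The code was first tested on simulated counts. DESeq2 1.42.0 was an alternative. Standard errors are the log2 change over the root of F. Of 263 called genes tested 17 had a count line of another gene that followed theirs at 1 ratio in every sample, and in 0 of them was that other gene called. No pairing of samples by replicate number was seen (correlation of deviations for shared numbers -0.006 to -0.002, for other numbers -0.051 to 0.051). Counting noise enters these deviations, so a small effect shared by samples of 1 number could be missed.

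The comparison, the 51 gene lists and the tests were chosen with earlier results of these data known. Named are all tested members of the AhR list, the 15 called genes with the largest rise and fall at a mean of at least 50 normalised counts, up to 6 called members of each list, the most abundant member of lists without a call, and up to 15 called genes per test between oils or stages. Genes named outside this rule are said to be chosen after their values were seen. Results for a few genes are not reported here.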

Additional observations from a re-analysis of the deposited data

Results flagged for a closer look

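The test of the difference between stages was passed by these named genes, which were called at 48 hpf and so share those libraries with the choice. Values are log2 differences of the slick effect, with edgeR's adjusted p.

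Between 48 and 24 hpf, the effect was lower at 48 hpf for the transporter SLC14A2 by -3.13 (adjusted p = 3e-06), the potassium channel KCNQ1 by -2.48 (0.00017) and G6PC by -1.88 (1.8e-09). The lipid genes DGAT2 and ELOVL1 differed by -0.81 (6.8e-06) and -0.75 (0.0024). The matrix genes COL1A1, COL1A2 and COL12A1 differed by -0.51 (1.1e-07), -0.47 (5.6e-07) and -0.45 (0.00074). Transferrin (TF) differed by -0.47 (0.00014), GATM by -0.46 (5.5e-06), ZFP36 by -0.55 (0.00065) and ID 79966, which has no symbol here, by -0.85 (0.00027). The effect was higher at 48 hpf for DDC by 2.60 (5.6e-07), SDHB by 0.50 (1.3e-06) and HSP90AA1 by 0.31 (0.0024).

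Between 96 and 48 hpf, the effect was lower at 96 hpf for the ammonia transporters RHCG, RHBG and RHAG by -1.98 (1.1e-15), -1.07 (4.5e-12) and -0.96 (1.2e-11), for TKT by -1.29 (1.6e-17) and for MAT2A by -0.82 (2.7e-12). It was higher at 96 hpf for FSTL3 by 1.67 (4.3e-16), MSMO1 by 1.52 (1.4e-20), CP by 1.46 (7.6e-18), SQSTM1 by 1.39 (4.8e-14), F2 by 1.36 (2.5e-12), DMGDH by 1.32 (4.2e-17), DGAT2 by 1.08 (4.8e-15) and RBP4 by 0.98 (7.6e-18). The lysosomal genes PSAP and CTSD differed by 0.90 (3.6e-11) and 0.85 (1.3e-11).

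At 48 hpf the calls of PSAP, CTSD, DMGDH and ID 79966 were lost without slick replicate 6 (adjusted p = 0.066, 0.095, 0.37 and 0.055), and with summed lines, that of MAT2A with summed lines (0.067) and that of KCNQ1 with DESeq2 (0.061).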

How the results depend on the processing

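The count of 266 genes for slick against control became 129 with DESeq2, 148 with all lines of a gene summed, and 170 (without slick replicate 6) to 285 (without slick replicate 4) over the 6 fits that left out 1 library. Source against control went from 106 to 45 with DESeq2, 34 with summed lines, 61 with 1 sample of each control pair and 182 with each control sample as a library, and 34 (without control replicate 4+5) to 169 (without slick replicate 4) with 1 library left out. Slick against source went from 60 to 110 with no filter on low counts, 38 with DESeq2, 27 with summed lines, and 47 to 116 (without slick replicate 4) with 1 library left out. The difference between 48 and 24 hpf went from 60 to 34 with DESeq2 and 33 with summed lines, and that between 96 and 48 hpf from 1036 to 660 with DESeq2. The cause was not tested. With the replicate number as a block, over slick and control replicates 4, 5 and 6, 296 genes were called. In that fit control replicates 4 and 5, summed as 1 library elsewhere, entered as separate samples, so its count rests on controls that are not independent. No pairing by these numbers was seen, though a small shared effect could be missed.

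Of 132 named genes, 132 kept direction and side of the threshold with RLE scaling, 101 with DESeq2, 97 with summed lines and 102 without slick replicate 6. Reversals occurred in 8 genes, none of them called. Their log2 changes ranged over the fits without 1 control library, and then without 1 slick library, from -0.170 to 0.032 and -0.168 to -0.018 in ACE, from -0.099 to 0.236 and -0.067 to 0.257 in ARNT, from -0.058 to 0.182 and 0.031 to 0.097 in ARNT2, and from -0.030 to 0.104 and 0.037 to 0.050 in CCNG1. They ranged from -0.178 to 0.252 (-0.003 without control replicate 4+5) and -0.135 to 0.201 in CRYBA2, from -0.050 to 0.000 and -0.041 to 0.003 in P4HA1, from -0.050 to -0.027 and -0.081 to 0.013 in PSMB5, and from -0.003 to 0.063 and -0.028 to 0.092 in PTGES3. With 1 sample of each control pair CRYBA2 was at -0.002 and P4HA1 at 0.014. P4HA1 was at 0.033 with summed lines, and ACE and P4HA1 at 0.092 and 0.009 with the replicate block. Depth limits genes of few counts, such as KCNQ1, DDC and NQO1, most.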

Other observations

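Further genes were called under every alternative in which they passed the low-count filter and, except for MEGF6, OTOG and CXCL14, chosen after their values were seen. FGF7, a growth factor made by mesenchyme for epithelia, had 3.27, 1.49 and 1.55 normalised counts in controls, 26, 17.4 and 17.8 in slick and 10.4, 4.14 and 7.55 in source. It rose 9.51-fold (edgeR adjusted p = 1.9e-08), with all slick libraries above all controls. MLNR, the receptor of the gut hormone motilin, had 5.46, 3.97 and 8.77 in controls and 29.5, 23.8 and 17.8 in slick (3.9-fold, adjusted p = 1.6e-05), and stood at 58-fold at 96 hpf. ESM1, a proteoglycan of growing vessels, had 8.19, 14.4 and 15.5 in controls and 36.5, 33.9 and 30.6 in slick (2.63-fold, adjusted p = 3.9e-05). Its source libraries held 12.2, 15.5 and 8.62, and the oils differed (adjusted p = 0.0016). CBR1, a reductase of carbonyl compounds and quinones, rose 2.02-fold (18, 18.4 and 19.1 in controls, 45.1, 33.9 and 32.5 in slick, adjusted p = 0.00049).

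Genes of secreted proteins changed in both directions. MEGF6, a protein of epidermal growth factor-like repeats, had 225, 255 and 251 normalised counts in controls, 378, 393 and 412 in slick and 329.6, 324 and 327 in source. It rose 1.61-fold (adjusted p = 1.9e-11), with source between the other groups. EGFL6, a matrix protein of the same repeat family, had 1003, 1042 and 982 in controls and 799.5, 809 and 818 in slick and fell to 0.801-fold (adjusted p = 2.6e-05). OTOG, a protein of the gel over the hair cells of the inner ear, rose 1.65-fold (46.4, 55.1 and 60.4 in controls, 101, 80.5 and 85.8 in slick, adjusted p = 0.00014). CXCL14, a chemokine of skin, rose 1.62-fold (adjusted p = 0.00054).

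Among genes of neurons and endocrine cells, INSM1 and INSM2, zinc finger factors of new neurons and endocrine cells, both fell. INSM1 had 576, 506 and 525 normalised counts in controls and 416, 411 and 337 in slick (0.727-fold, adjusted p = 1.8e-06), and INSM2 had 183, 156 and 155 in controls and 128, 114 and 110.5 in slick (0.716-fold, adjusted p = 0.00038). RIMS2, an organiser of vesicle release at synapses, rose 1.49-fold (52.4, 48.7 and 51.6 in controls, 69.5, 78.7 and 79.9 in slick, adjusted p = 0.0026). DOCK3, a neuronal exchange factor, and CACNA2D3, a calcium channel subunit, rose 1.44-fold and 1.39-fold (adjusted p = 0.0022 and 0.00024). ZFP36L2, a relative of ZFP36 and ZFP36L1, fell to 0.726-fold (adjusted p = 6.2e-05), on a line over 1.5-fold from the mean in the authors' deposited table.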
